A study of Homo sapiens and synthetic construct with 14 samples.

Results

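Reporter RNA of one library of enhancer and silencer-position pairs was compared between HepG2, a human liver cancer cell line, and K562, a human chronic myeloid leukaemia cell line. The comparison used 2 of the 14 samples of the series, which together hold 8 RNA libraries, 4 per line, described as biological replicates in the series design text. Both lines are established cell lines, each without any treatment other than electroporation of the plasmid pool, and RNA was taken after 24 hours of recovery. The library, named WGREST, carried genomic windows of 200 bases from REST binding sites across the genome, each paired in turn with 5 enhancers, named En02, En09, En11, En19 and En21. A construct is 1 window or control element beside 1 enhancer, and its measure is the summed count of its barcodes in GFP messenger RNA. Constructs were matched between the lines by name and kept at a mean plasmid count of at least 20, which left 112451 of 116831 constructs.

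REST is a zinc-finger repressor that binds RE1 sites and recruits corepressors, and it is best known for keeping neuronal genes silent in cells that are not neurons. Both HepG2 and K562 are non-neuronal lines. A reporter plasmid reads what a window can do in the factor content of the cell, outside its own chromosome: HepG2 carries liver-enriched factors such as those of the HNF and FOXA families, and K562 carries erythroid and megakaryocytic factors such as GATA1 and TAL1. The assay holds no endogenous transcripts, so the lines could not be checked against marker genes here.

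The windows fell into classes by their names and the project column. Of the elements measured beside all 5 enhancers, 7511 were native windows that hold an RE1 motif (motif windows) and 3951 were native windows without one (no-motif windows). A further 5199 were motif windows with the motif scrambled, 3495 carried an alternate allele, and 86 positive controls, 721 random sequences and 415 negative controls completed the set of 21378. Window positions are printed as the names give them.

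Total counts ran from 53644322 to 81755607 in the HepG2 libraries and from 50184575 to 94912250 in the K562 libraries. On the log2 scale the constructs correlated at 0.912 to 0.948 between HepG2 libraries, at 0.977 to 0.984 between K562 libraries and at 0.873 to 0.916 between the lines. HepG2 library 4 stood apart: 7.72% of its constructs had no count, against 2.35% to 3.87% in the other HepG2 libraries and 1.09% to 1.46% in K562. The zeros lay mainly beside the weak enhancers, at 15.4% beside En02 and 21.3% beside En11 in that library. Without it, HepG2 libraries correlated at 0.943 to 0.948.

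The enhancers themselves differed between the lines. The level of an enhancer is the log2 share of control-element counts found beside it, RNA over plasmid, so the 5 levels are relative to each other within a library. En02 stood at -2.33, -2.54, -2.35 and -2.33 in HepG2 and at -3.46, -3.13, -3.21 and -3.00 in K562. All 4 HepG2 libraries lay above all 4 K562 libraries, a difference of 0.81. En11 was also weak in both lines and relatively higher in HepG2, at -2.09 ± 0.09 (SD, n = 4) against -2.59 ± 0.21. En19 stood at -0.34 ± 0.06 in HepG2 and at -0.85 ± 0.29 in K562, where library 1 was lowest at -1.28. En09 was the enhancer that was relatively higher in K562, at 0.45 ± 0.06 against 0.14 ± 0.04 in HepG2. En21 was the strongest in both lines, at 1.56 ± 0.02 in HepG2 and 1.46 ± 0.06 in K562. None of the 5 pairs of groups overlapped, and each gave a two-sided exact permutation p of 0.0286, the smallest that 4 against 4 allows (0.0286 after adjustment over the 5 enhancers). For En21 the order was lost to overlap when the share was taken over all elements (difference 0.01, exact permutation p = 0.743).

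Each element's counts were therefore scaled on the summed counts of random and negative control elements beside the same enhancer. An element level is log2 of RNA over plasmid on that scale, averaged over the 5 enhancers. Because a few controls hold much of the sum, the typical random sequence lies below 0, at a median of -0.55 ± 0.04 in HepG2 and -0.79 ± 0.08 in K562. The weight of those few differed between the lines: the 5 controls with most counts beside En02 held 14.6% to 15.5% of control counts in HepG2 and 24.3% to 31.6% in K562. Scaling on the median of the controls instead moves every difference between the lines toward K562, by 0.66 beside En02, 0.23 beside En11, 0.35 beside En19, 0.10 beside En09 and 0.23 beside En21. Counts and levels below are on the summed-control scale, and the main splits of calls into HepG2-higher and K562-higher are given under median scaling too.

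Windows differed widely between the lines. Of the 112451 constructs, 51.2% differed in edgeR's quasi-likelihood test at an adjusted p under 0.05: 37255 were higher in HepG2 and 20338 in K562. Median scaling turned this split to 25545 against 29608. Of the 21378 elements, tested with limma on 1 value per library, 45.9% differed: 6654 were higher in HepG2 and 3167 in K562, against 3771 and 6808 under median scaling. With each library centred on the median of all elements, a choice added after seeing the data, the split was 4527 against 5616. Scaling on total counts, which leaves the differences of the enhancers in, gave 10120 against 1391. More elements were called over En09, En19 and En21 alone, a choice also added after seeing the data, with 10808 higher in HepG2 and 5749 in K562. More were also called with edgeR on counts summed over the enhancers, 10721 and 6395. Without HepG2 library 4, 59976 constructs and 10650 elements were called. The number of elements that differ was within 1.5 times the reported one under each of the scalings, and the side taken by small differences was not. At 2-fold or more, 13.1% of elements differed, of which 2063 were higher in HepG2 and 742 in K562 (1126 and 1675 under median scaling).

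Differences of at least 2-fold made up the largest share in no-motif windows. These windows were at least 2-fold higher in HepG2 in 749 cases (19.0%) and in K562 in 207 cases (5.24%). Motif windows were at least 2-fold higher in HepG2 in 564 cases (7.51%) and in K562 in 242 cases (3.22%). The background over all elements was 9.65% for HepG2 and 3.47% for K562. Random sequences gave 6.93% and 2.08%, and scrambled versions 8.16% and 3.12%. With libraries centred on the median of all elements, no-motif windows gave 14.4% and 7.64%, and motif windows 4.57% and 6.34%, so that the HepG2 side stayed larger for no-motif windows and the K562 side became larger for motif windows. Under median scaling no-motif windows gave 12.8% and 9.24%, and motif windows 3.86% and 8.24%.

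**Figure D1:**
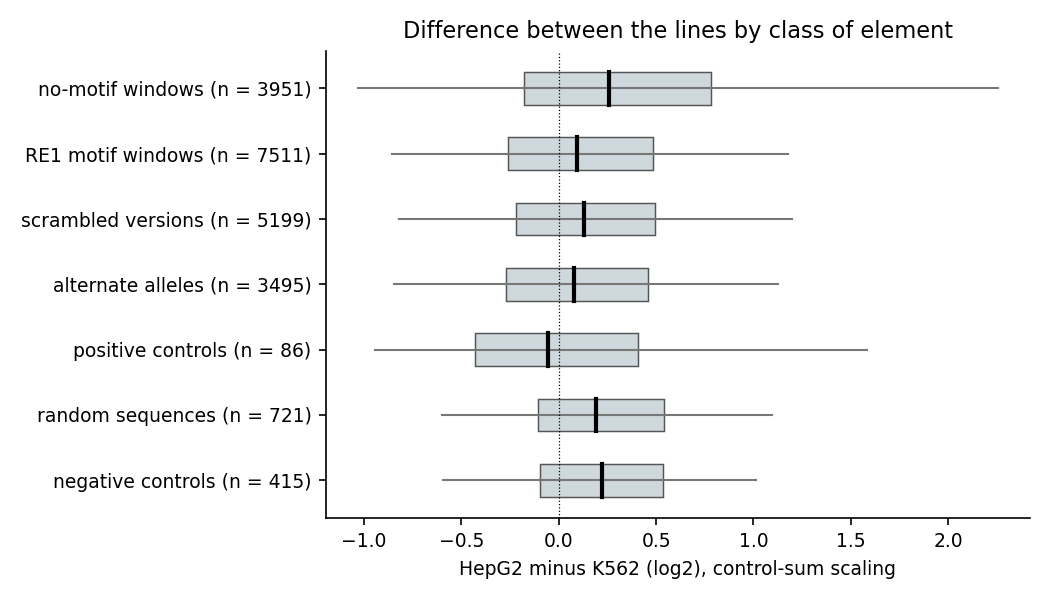
HepG2 minus K562 difference (log2, scaled on the summed controls) by class of element; the line spans the 5th to 95th percentile over elements, the box the quartiles and the thick mark the median, with the number of elements in brackets. No-motif windows reach farthest to the HepG2 side, with a median of 0.26 and a 95th percentile of 2.26, against 0.09 and 1.18 for motif windows.

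The class medians gave the same contrast on 1 value per library. They are first given relative to the median of the random sequences in the same library, a choice added after seeing the data. On that scale no-motif windows stood at 0.38, 0.38, 0.35 and 0.39 in HepG2 and at 0.24, 0.21, 0.21 and 0.20 in K562. The groups did not overlap (difference 0.16, two-sided exact permutation p = 0.0286, adjusted over the 5 classes 0.0357). Motif windows went the other way, at -0.10 ± 0.02 in HepG2 and -0.03 ± 0.01 in K562, with the same p. Scrambled versions stood at 0.20 ± 0.01 and 0.26 ± 0.02, alternate alleles at -0.06 ± 0.01 and 0.01 ± 0.01, also without overlap. Positive controls did not differ beyond their spread, at 2.52 ± 0.06 in HepG2 and 2.59 ± 0.09 in K562 (exact permutation p = 0.257). The planned test was on the summed-control scale. There all 5 medians were higher in HepG2, by 0.40 for no-motif windows and by 0.16 to 0.17 for the other classes. Each gave an exact permutation p of 0.0286 (0.0286 after adjustment over the 5 classes). The direction of the motif, scrambled, alternate and positive control medians thus depends on the scale. Under median scaling the no-motif difference was 0.0875 and missed the threshold (exact permutation p = 0.0571). The distance from the motif to the no-motif median within a library needs no scaling. It was 0.48, 0.46, 0.45 and 0.52 in HepG2 and 0.27, 0.23, 0.24 and 0.24 in K562. Every HepG2 library exceeded every K562 library, by 0.23 on average (exact permutation p = 0.0286, tested after the class medians had been seen).

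Levels in the lines followed each other less closely among no-motif windows. Across 3951 no-motif windows the mean levels correlated with Pearson's r of 0.67 and Spearman's rho of 0.66. Across 7511 motif windows they correlated at 0.90 and 0.88, and across 5199 scrambled versions at 0.88 and 0.84. Levels share the plasmid counts of each construct, and these figures describe the windows only. Counting a window as active at a level of at least 1, 352 no-motif windows (8.91%) were active in both lines, 355 (8.99%) in HepG2 alone and 189 (4.78%) in K562 alone. Of the 355, 223 had a level below 0 in K562. Of the 189, 64 were below 0 in HepG2. Among motif windows 737 (9.81%) were active in both lines, 262 (3.49%) in HepG2 alone and 228 (3.04%) in K562 alone. Random sequences gave 6.1%, 2.36% and 1.8%. These counts are given on the summed-control scale alone. The median random sequence lies at -0.55 in HepG2 and -0.79 in K562 there, so the cutoff of 1 is farther above it in K562.

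**Figure D2:**
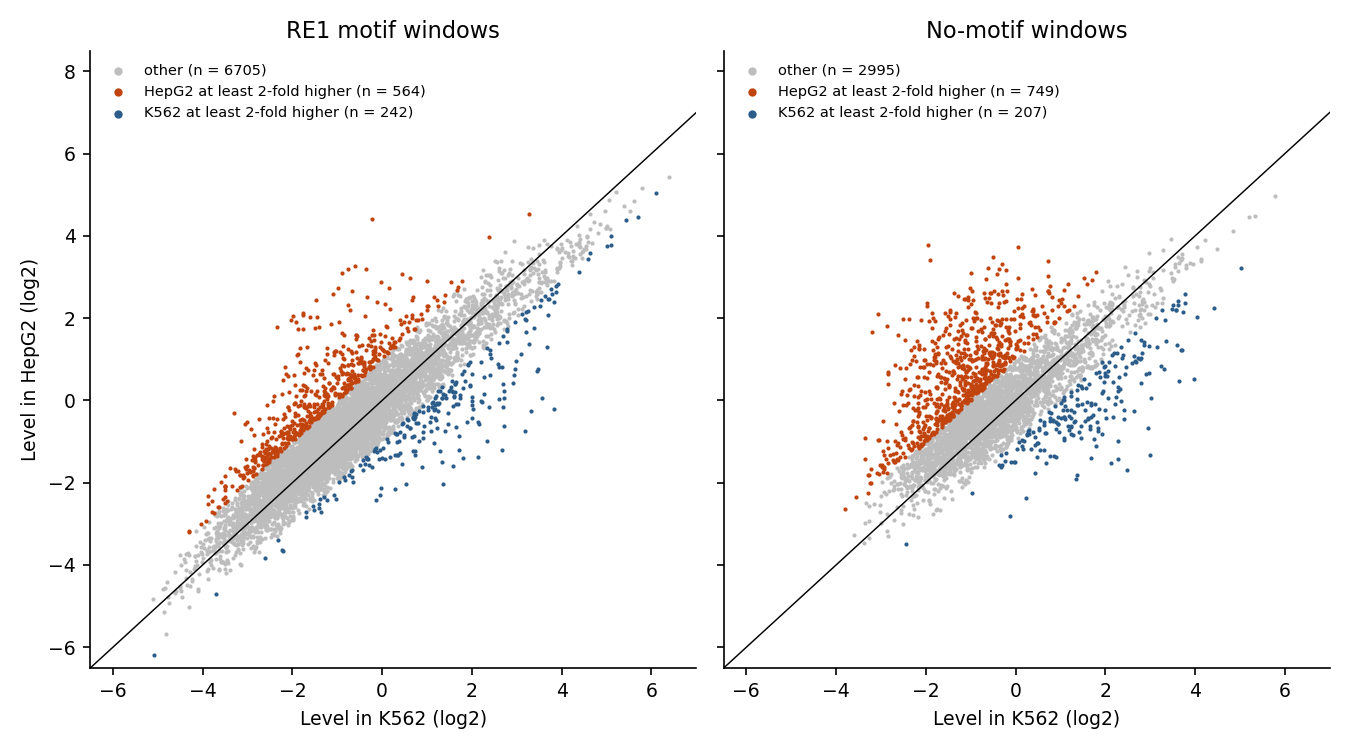
Mean element level (log2, n = 4 libraries per line) in HepG2 against K562 for motif windows (left) and no-motif windows (right); colours mark windows that differ at an adjusted p under 0.05 and at least 2-fold, and the line marks equality. The no-motif panel holds 749 windows in the HepG2-higher group and 207 in the K562-higher group, with a cloud at high HepG2 levels and K562 levels below 0.

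The windows with the largest HepG2 excess were mostly no-motif windows: 10 of the 12 taken by rule (12 largest differences that passed the limma test, with the same sign beside every enhancer, non-overlapping libraries and a mean plasmid count of at least 100). Of the 2877 native windows that met these conditions in either direction, 45.7% had no motif. Over all elements, 44.6% had libraries that did not overlap between the lines. The no-motif window chr10:60833391-60833591 had the largest difference. Its levels were 4.00, 3.72, 3.71 and 3.68 in HepG2 and -2.07, -1.91, -1.76 and -2.06 in K562. The lines were separated by 5.73 ± 0.11 (SE) on the log2 scale (limma adjusted p = 4.15e-08). Its raw counts beside En02 were 2728, 1541, 1318 and 1457 in HepG2 and 9, 5, 6 and 3 in K562, from a mean plasmid count of 194. The median control beside En02 had 21 to 34 counts per library in HepG2 and 10 to 12 in K562, so the window lay far above it in HepG2 and below it in K562.

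The no-motif window chr4:155519279-155519479 stood at 3.62, 3.11, 3.42 and 3.47 in HepG2 and at -1.81, -1.96, -1.92 and -1.97 in K562. The difference was 5.32 ± 0.12 (adjusted p = 5.28e-08). Beside En19 this window was also the construct with the largest HepG2 excess under the rule for single constructs, with counts of 3077, 1961, 1747 and 2021 in HepG2 and 22, 14, 22 and 13 in K562. The edgeR difference of that construct was 6.54 ± 0.13 (adjusted p = 8.98e-18). The other 2 HepG2-higher constructs of that rule were no-motif windows as well. chr6:43774163-43774363 beside En02 gave 4349, 2889, 2839 and 3124 counts in HepG2 and 16, 26, 21 and 26 in K562. chr16:77417745-77417945 beside En19 gave 4772, 3421, 2717 and 2889 counts against 31, 35, 27 and 29. In all 3 constructs the lowest HepG2 library was far above the highest K562 library.

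The other HepG2-higher windows differed in profile. In chr9:114111128-114111328 the HepG2 level was 2.11 ± 0.12 and the K562 level -3.07 ± 0.54, with K562 libraries from -3.68 to -2.38, and in chr14:88106982-88107182 the levels were 1.67 ± 0.20 and -3.19 ± 0.41. These no-motif windows were far below the controls in K562, so that the excess lay on both sides of 0. The motif window chrX:87815858-87816058 had the highest HepG2 level of the 12, at 4.56, 4.33, 4.46 and 4.30, and K562 levels near 0, at -0.35, 0.15, -0.29 and -0.39. Its difference was 4.63 ± 0.14 (adjusted p = 8.65e-08). The remaining motif window, chr11:95832061-95832261, stood at 1.78 ± 0.07 in HepG2 and -2.34 ± 0.03 in K562. The other 6 were no-motif windows on chromosomes 1, 2, 4, 7, 16 and 21, and over all 12 the differences ran from 4.12 to 5.73, from 3.81 to 5.41 under median scaling. None of the 12 changed direction or fell short of the threshold under an alternative. With an enhancer or a library left out, the rule had fixed the direction in advance.

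The 12 windows with the largest K562 excess were 6 with a motif and 6 without, close to the 45.7% of no-motif windows among those the rule could take. The no-motif window chr1:181875211-181875411 led, with levels of 3.17, 2.93, 3.04 and 2.85 in K562 and -1.09, -1.21, -1.03 and -1.97 in HepG2. HepG2 minus K562 was -4.32 ± 0.20 (limma adjusted p = 7.15e-07), and the lowest HepG2 value was that of library 4. In chr12:92798804-92799004, also without a motif, the K562 levels were 2.58, 2.44, 2.46 and 2.43 and the HepG2 levels -1.85, -1.77, -1.60 and -1.57. That difference was -4.18 ± 0.09 (adjusted p = 5.28e-08). The lines were as clearly separated in the counts: beside En02 this window gave 1433, 1265, 1184 and 887 counts in K562 and 15, 18, 18 and 23 in HepG2.

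The motif window chr19:49376863-49377063 had K562 levels of 3.93, 3.77, 3.82 and 3.80 and HepG2 levels of -0.18, -0.22, -0.42 and 0.02. HepG2 libraries were thus close to the summed controls and K562 libraries far above them, with a difference of -4.03 ± 0.11 (adjusted p = 6.31e-08). Beside En02 its counts were 6455, 5656, 5468 and 4247 in K562 and 137, 41, 41 and 96 in HepG2, which made it the construct with the largest K562 excess among those with at least 10 counts in every HepG2 library and a mean plasmid count of at least 100, at -6.83 ± 0.16 (edgeR adjusted p = 5.60e-17). Another motif window of the library, chr19:49376802-49377002, overlaps it by 139 bases and was also higher in K562, by less: HepG2 minus K562 was -2.22 (adjusted p = 7.06e-06). The motif window chr6:135644364-135644564 stood at 3.17 ± 0.06 in K562 and -0.75 ± 0.38 in HepG2, where library 3 was highest at -0.18. The highest K562 level of the 12 was that of the no-motif window chr12:87834039-87834239, at 3.99 ± 0.20 against 0.51 ± 0.41 in HepG2. Over the 12 windows HepG2 minus K562 ran from -4.32 to -3.47 (from -4.64 to -3.79 under median scaling). None changed direction or fell short of the threshold under an alternative, where the rule again fixed the direction with an enhancer or a library left out.

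**Figure D3:**
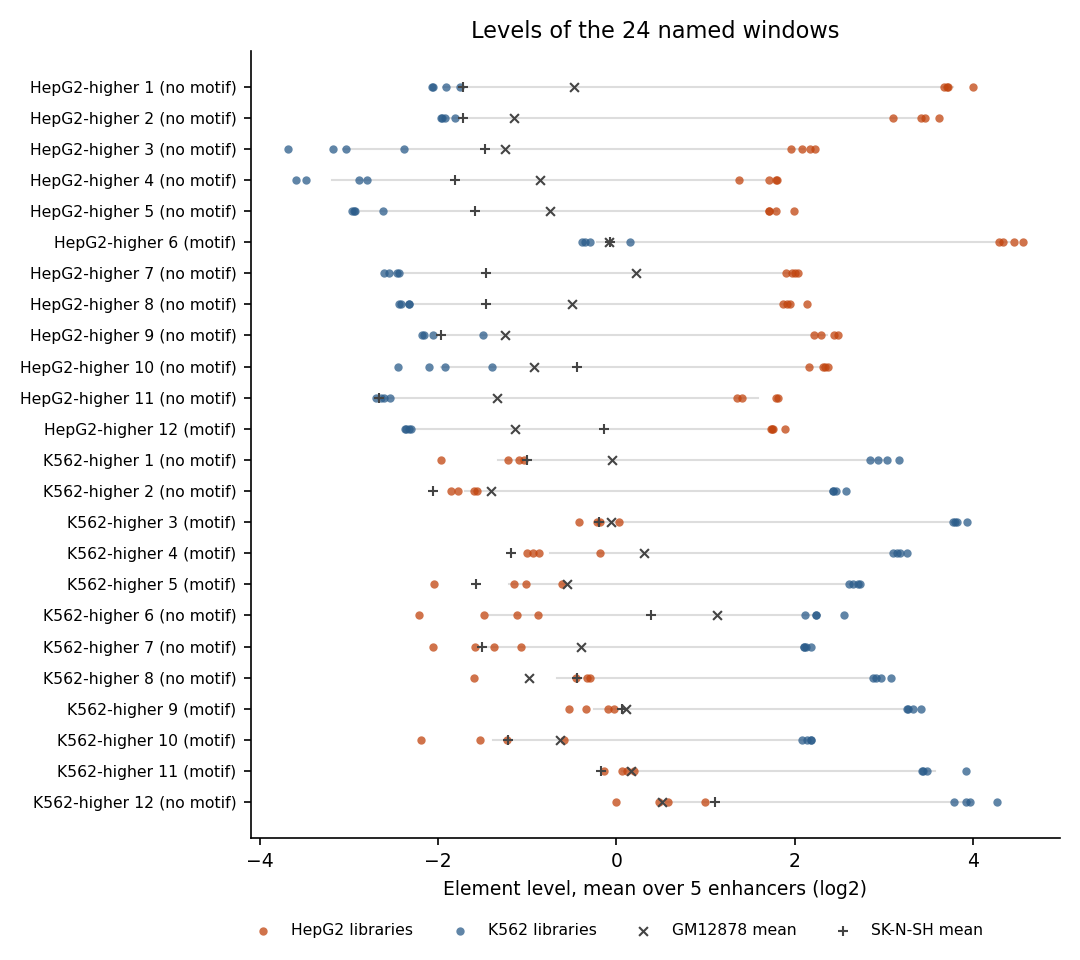
Element level (log2, mean over the 5 enhancers) of the 24 windows taken by rule, 12 HepG2-higher and 12 K562-higher, in descending order of the difference; each dot is a library, and crosses give the means of the 4 GM12878 and 4 SK-N-SH libraries. HepG2 levels of the upper 12 average 1.59 to 4.41, K562 levels of the lower 12 average 2.13 to 3.99, and no group of libraries overlaps the other.

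GM12878, a lymphoblastoid line, and SK-N-SH, a neuroblastoma line, received the same library and show where the other lines lie for these windows. For all 12 HepG2-higher windows HepG2 had the highest of the 4 mean levels, with GM12878 at -1.34 to 0.22 and SK-N-SH at -2.66 to -0.07. For all 12 K562-higher windows K562 was the highest, with GM12878 at -1.41 to 1.13 and SK-N-SH at -2.05 to 1.10. The split of native windows at 2-fold was 1313 higher in HepG2 and 449 in K562, and turned to 795 and 984 under median scaling. Of the 1313, HepG2 was the highest line in 960. Their median levels were 0.48 in HepG2, -0.52 in GM12878, -0.72 in SK-N-SH and -1.31 in K562. Of the 449, K562 was the highest line in 377. Their medians were 1.47 in K562, -0.00 in GM12878, -0.02 in SK-N-SH and -0.25 in HepG2. The choice of the windows sets the order of HepG2 and K562 in these medians. In both sets the GM12878 and SK-N-SH medians lay between those of HepG2 and K562. Windows chosen for a gap between HepG2 and K562 favour these lines as the highest and the lowest. The ranks among the lines and the places of GM12878 and SK-N-SH are therefore a description.

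The size of the difference varied with the enhancer beside the window. The same sign beside every enhancer was a condition for the 24 named windows. Over all elements, 5378 of the 9821 called (54.8%) had it. In the 12 HepG2-higher windows the difference was 4.22 to 7.35 beside En02, 4.16 to 6.96 beside En11 and 4.36 to 6.49 beside En19, but 2.16 to 5.08 beside En09 and 1.95 to 4.17 beside En21. In the 12 K562-higher windows HepG2 minus K562 was -7.17 to -4.91 beside En02, -6.29 to -4.45 beside En11 and -5.07 to -3.44 beside En19, but -2.29 to -1.17 beside En09 and -1.82 to -0.61 beside En21. The ranges beside En09 and En21 lay apart from those beside the other 3 enhancers for the K562-higher windows, and overlapped them for the HepG2-higher windows. The pattern held over the larger set of native windows with a 2-fold difference and a mean plasmid count of at least 100. In 1273 HepG2-higher windows the median difference was 1.90, 1.68 and 1.99 beside En02, En11 and En19, and 1.11 and 1.13 beside En09 and En21. In 428 K562-higher windows it was -2.58, -2.26 and -1.83 beside the former and -0.44 and -0.58 beside the latter. These sizes are on the summed-control scale alone. Median scaling moves the difference toward K562 by 0.66 beside En02 and by 0.10 beside En09. For the same windows, it thus narrows the gap between En02 and En09 on the HepG2-higher side and widens it on the K562-higher side. Counts are lower beside En02 and En11: the median control had 10 to 34 counts per library beside En02 and 11 to 25 beside En11, against 340.5 to 696 beside En09. The SD of the difference over 20479 elements was 1.26 beside En02 and 1.18 beside En11, 1.07 beside En19, 0.66 beside En09 and 0.71 beside En21. How far the low counts enter the larger differences beside En02 and En11 was not tested. Counts beside En02 are given above for some of the named windows only, and none beside En11. Some were near 0 in the lower line. In HepG2, chr1:48387803-48388003 had 14, 11, 3 and 0 counts beside En02 and 7, 0, 5 and 0 beside En11. In K562, chr9:114111128-114111328 had 2 counts in every library beside En02.

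**Figure D4:**
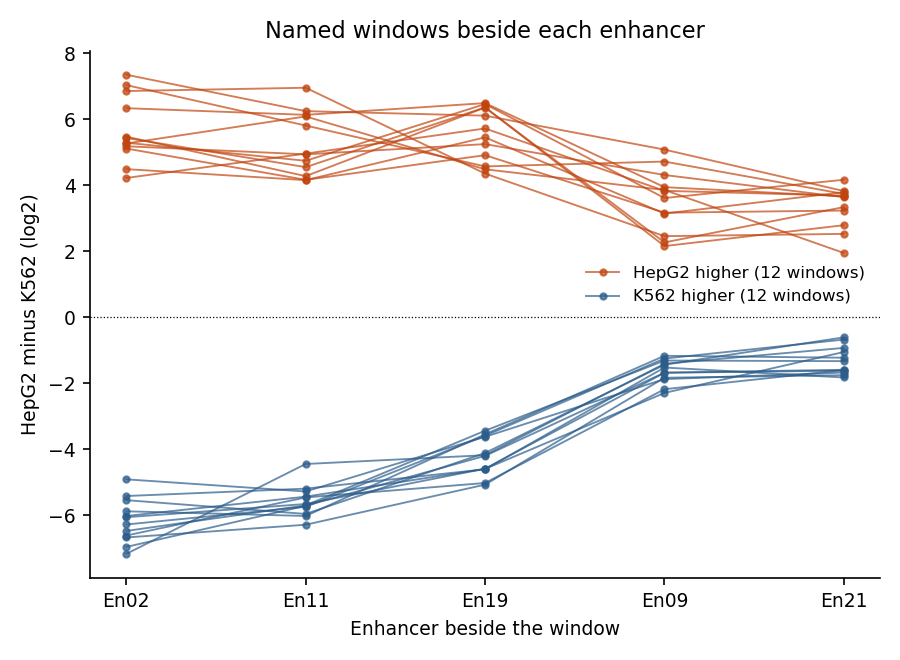
HepG2 minus K562 difference (log2) of each of the 24 windows beside each enhancer; each line is 1 window. The rule chose windows with the same sign beside every enhancer, and the K562-higher windows differ least beside En09 and En21, where the K562-higher windows lie between -2.29 and -0.61.

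Of 106890 pairs of element and enhancer, 25.2% differed between the lines by an amount unlike that beside the other enhancers (limma on the value beside 1 enhancer minus the mean of the other 4). At least 1 such pair was found in 13632 of 21378 elements. The share was 32.7% beside En09, 30.1% beside En19, 28.9% beside En21, 21.5% beside En02 and 12.9% beside En11. These calls are on the summed-control scale alone. The shift to median scaling is 0.66 beside En02 and 0.10 beside En09, so the choice of scaling does not cancel in this contrast. No other scaling was tried for it. The motif window chr20:47139735-47139935 was higher in HepG2 beside En21, by 3.13, with counts of 229, 155, 204 and 256 in HepG2 and 20, 29, 31 and 16 in K562. Beside En02 and En11 its difference had the opposite sign, at -3.11 and -1.70. The motif window chr1:243237616-243237816 behaved alike in sign, at 3.47 beside En21 and -3.09 beside En11. The other named case on the HepG2 side was the scrambled version of chr18:5108091-5108291 beside En11, with 123, 32, 37 and 49 counts in HepG2 and 0 in every K562 library. Its plasmid counts were 16 to 32 per library, and no fold is given for it. The 3 named cases on the K562 side also had few or no counts in HepG2. A scrambled version on chromosome 8 beside En02 had 0, 3, 0 and 0 counts in HepG2 and 112, 82, 80 and 84 in K562. The motif window chrX:153140866-153141066 beside En02 had 7, 0, 0 and 0 counts in HepG2 and 13, 10, 16 and 26 in K562, from 838 to 1286 plasmid counts. An alternate allele on chromosome 7 beside En11 had 23, 0, 0 and 0 counts in HepG2 and 225, 199, 139 and 119 in K562.

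Whether the effect of the RE1 motif differed was asked through pairs of a native window and its scrambled version. A difference between the lines in such a pair can come from either version. Native minus scrambled is negative where the native window lies below its scrambled version. Its median over 4886 loci was -0.269, -0.263, -0.273 and -0.284 in the HepG2 libraries and -0.261, -0.258, -0.243 and -0.248 in the K562 libraries, with 61.7% to 63.0% of loci below 0. All HepG2 medians lay below all K562 medians, a difference that was not tested. Limma called the difference between the lines at 611 loci, 12.5% of those tested, with 312 relatively higher in HepG2 and 299 in K562. Of these, 187 differed at least 2-fold, and at 179 the native window was above its scrambled version in one line and below it in the other. The count was 693 without HepG2 library 4 and fell to 347 to 385 when any K562 library was left out (364, 347, 383 and 385 without library 1, 2, 3 and 4). Over En09, En19 and En21 alone, a choice added after seeing the data, 1701 loci were called, 1095 relatively higher in HepG2 and 606 in K562. The scaling of the controls cancels in these values.

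**Figure D5:**
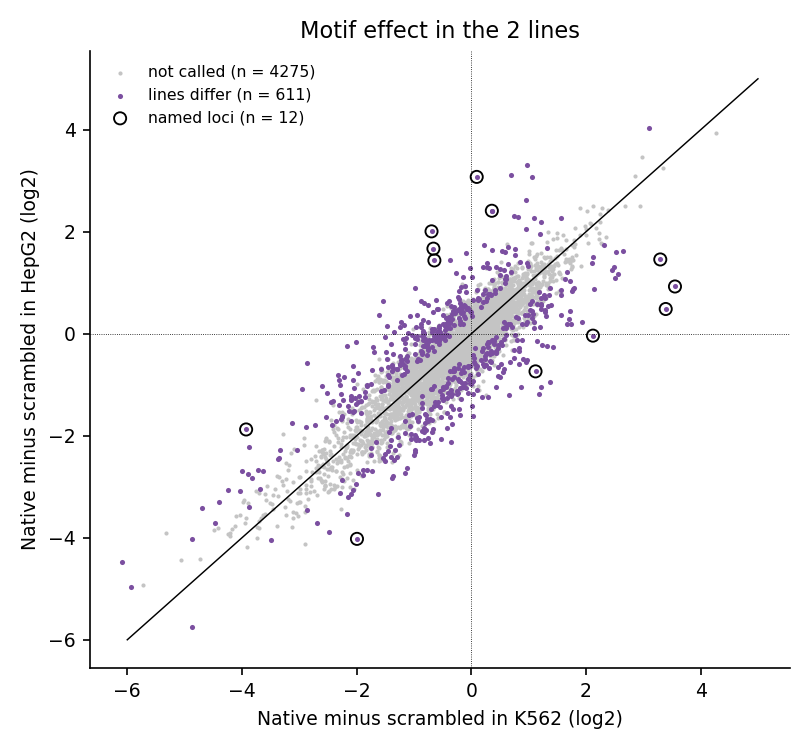
Native minus scrambled (log2, mean over 5 enhancers and 4 libraries) in HepG2 against K562 for 4886 loci; purple marks the 611 loci at which the lines differ (limma, adjusted p under 0.05), circles the 12 loci taken by rule, and the line marks equality. Most loci follow the line, and the circled loci lie off it on both sides.

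At 3 of the 6 loci with the largest shift to HepG2, the native window exceeded its scrambled version in HepG2 and lay below it in K562. At chr20:30284077-30284277 native minus scrambled was 1.89, 2.31, 1.57 and 2.27 in HepG2 and -0.52, -0.90, -0.83 and -0.52 in K562. Averaged over the enhancers, the scrambled versions were alike, at -0.71 and -0.70, while the native window stood at 0.60 in HepG2 and -2.09 in K562. In that average the line difference was thus carried by the version with the motif (2.70 ± 0.19, limma adjusted p = 0.000122). Beside single enhancers, HepG2 minus K562 of the scrambled version ran from -0.89 (En11) to 0.97 (En02), and of the native window from 2.15 (En09) to 3.42 (En02). The scrambled version had 40, 3, 15 and 0 HepG2 counts beside En11. chr11:95832061-95832261, one of the 12 HepG2-higher windows, had effects of 1.67 ± 0.21 in HepG2 and -0.66 ± 0.12 in K562. Its scrambled version kept a HepG2 excess of 1.79. At chr16:67499791-67499991 the effects were 1.44 ± 0.16 and -0.64 ± 0.06, and here the scrambled version changed more than the native window, with levels of -0.43 in HepG2 and 1.21 in K562.

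The largest shift to HepG2 was at chr11:64660866-64661066, where native minus scrambled was 3.18, 2.88, 3.09 and 3.15 in HepG2 and 0.22, -0.10, 0.35 and -0.10 in K562. The motif version was strongly active in HepG2, at 3.28, and the scrambled version was not, at 0.15. Neither version was active in K562, at -0.60 and -0.75, and the K562 effects scattered around 0. The effect differed by 2.98 ± 0.14 (adjusted p = 6.11e-05). At chr5:167742019-167742219 the effect was 2.41 ± 0.20 in HepG2 and smaller in K562, where all 4 libraries were above 0, at 0.48, 0.25, 0.45 and 0.25. At chr10:124487031-124487231 native minus scrambled was negative in both lines, and more so in K562, at -1.88 ± 0.38 in HepG2 and -3.93 ± 0.13 in K562. Its scrambled version was active in K562, at 2.59, and not in HepG2, at -0.37, while the native window was below 0 in both, at -0.68 and -1.59. Beside En02, the scrambled version gave 1042, 932, 917 and 714 counts in K562 and 98, 73, 34 and 91 in HepG2. The native window had few HepG2 counts beside En02 (15, 0, 15 and 0) and En11 (0, 0, 0 and 8). HepG2 minus K562 of the native window was -2.26 and -2.28 there, and 0.08, 0.06 and -0.14 beside En09, En19 and En21.

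Among the 6 loci shifted to K562, the native window exceeded its scrambled version in K562 at 5. At chr1:161136284-161136484 native minus scrambled was 3.73, 3.26, 3.33 and 3.25 in K562 and 0.60, 0.22, 0.77 and 0.36 in HepG2 (HepG2 minus K562 -2.91 ± 0.16, adjusted p = 6.11e-05). The native window was active in K562 alone, at 3.32 against -0.25. At chr19:49376863-49377063 the effects were 3.55 ± 0.14 in K562 and 0.93 ± 0.38 in HepG2, and the scrambled version retained part of the K562 excess, at 0.92 against -0.49. At chr7:64460140-64460340 they were 3.30 ± 0.11 and 1.46 ± 0.32. At chr11:111237158-111237358 the native window exceeded its scrambled version in K562, by 2.12 ± 0.22, and HepG2 libraries scattered around 0, from -0.21 to 0.17. At chr1:229038898-229039098 the signs were opposite, with 1.12 ± 0.22 in K562 and -0.74 ± 0.10 in HepG2. There the scrambled version was the more divided one, at 2.07 in HepG2 and -1.53 in K562. At the sixth locus, chr3:11006364-11006564, native minus scrambled was negative in both lines, at -4.02 ± 0.91 in HepG2 and -1.99 ± 0.28 in K562. Its HepG2 libraries ran from -5.13 to -2.93 and its call (adjusted p = 0.0160) was lost without K562 library 2 (0.0529) or 3 (0.0513). The native window had few HepG2 counts beside En02 (14, 8, 5 and 0) and En11 (0, 0, 11 and 0). HepG2 minus K562 of native minus scrambled was -2.81 and -2.73 there, and -2.32 and -1.93 beside En19 and En21. Beside En09, where the native window had 304 to 427 HepG2 counts, the value was -0.35.

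Motif windows that differed strongly and had a scrambled partner mostly differed with the motif scrambled too. In all, 564 motif windows were at least 2-fold higher in HepG2 and 242 in K562, and most of these were not in such pairs. Pairs covered 4886 loci, against 7511 motif windows, so strongly differing windows were under-represented among the pairs. Of 183 motif windows that had a scrambled partner and were at least 2-fold higher in HepG2, the scrambled version was also called higher in HepG2 for 156, at least 2-fold for 110. The median differences were 1.35 for native and 1.12 for scrambled versions. Of 71 that were at least 2-fold higher in K562, the scrambled version was called on the same side for 55, with medians of -1.40 and -1.14. Both versions were measured in the same libraries and on the same controls, and the call shares over all scrambled versions were 30.8% for HepG2 and 14.8% for K562, and the counts behind them, 1603 and 772, turned to 831 and 1702 under median scaling. The 183 and 71 windows were counted on the summed-control scale alone. The native minus scrambled difference was itself called at 61 of the 183 and 23 of the 71. The motif window chr5:154033517-154033717 is an example: HepG2 minus K562 was -3.51 with the motif and -3.52 with the motif scrambled.

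Alternate alleles gave few differences between the lines. Alternate minus native was called at 32 of 3278 alleles (0.976%), with 18 relatively higher in HepG2 and 14 in K562, and 11 reached 2-fold. None of the 32 had the same sign beside all 5 enhancers, so that none was taken by rule. The median effect was 0.02 in HepG2 and 0.01 in K562. Leaving out 1 library gave 5 to 28 calls: 16, 15, 19 and 28 without HepG2 library 1, 2, 3 and 4, and 7, 6, 6 and 5 without those of K562.

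Control elements differed between the lines as well, although they set the scale. Of random sequences 39.0% were called, and of negative controls 29.4%, against 45.9% of all elements. random_140 was the extreme, at 2.58, 2.80, 2.75 and 2.54 in K562 and -0.91, -1.27, -0.14 and -1.70 in HepG2 (HepG2 minus K562 -3.67 ± 0.29, limma adjusted p = 1.40e-05). random_426 stood at 2.16 ± 0.06 in K562 and -0.62 ± 0.19 in HepG2. On the other side random_162 stood at 0.65 ± 0.10 in HepG2 and -1.75 ± 0.23 in K562. A negative control from chromosome 16 was at 3.99, 3.18, 3.17 and 3.16 in K562 and at -0.32, -0.07, -0.29 and 0.21 in HepG2. Of the other negative controls taken by rule, 3 were higher in HepG2 by 1.49 to 1.56, and HepG2 minus K562 was -1.38 and -0.94 in the other two. The latter was -0.52 without En11 (limma adjusted p = 0.0907), where its call was lost. Among positive controls 48 of 86 were called, 22 higher in HepG2 and 26 in K562, with the largest HepG2 excess at 2.35 ± 0.11 and the largest K562 excess at -1.48 ± 0.12. Positive controls turned to 13 and 42 under median scaling.

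Overlapping windows were compared as well. There were 730 pairs of native windows that overlap by at least 100 bases, and in 118 of them at least 1 window differed 2-fold. The partners had the same sign in 105 of the 118 pairs, and in 69 both were called. Over all 730 pairs the sign was the same in 495. Partners share their libraries and controls, so these counts are a description. By chromosome, leaving out Y with its 2 native windows, the median difference lay between 0.05, on chromosome 21, and 0.22, on chromosome 14, on the summed-control scale.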

How the data were processed

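The members, classes and lists were chosen with earlier results of these data known. The deposited tables hold, per the file headers, raw barcode counts per construct for 4 RNA libraries per line and the same 4 plasmid libraries in each table. The authors summed these counts over barcodes (median 42 per construct), and the aligner and genome build are not given in the sources used here. Per the labels' protocols, GFP messenger RNA was captured on beads before reverse transcription and PCR, so counts are not independent molecules.

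Each of the tables had 139325 lines. Of these, 19325 reference-allele lines were dropped, as were 3169 lines without counts. Of those with a native partner, 18555 of 18555 repeat its counts.

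Constructs were tested with edgeR 4.0.16 (quasi-likelihood, R 4.3.3), RNA against RNA, with an offset of the summed random and negative control counts beside the same enhancer. Element values were, per library, the mean over the 5 enhancers of log2((count + 1) / control sum), tested with limma 3.58.1. That needs a mean plasmid count of at least 20 beside every enhancer. Native minus scrambled, alternate minus native and enhancer dependence were tested on the same values. Benjamini-Hochberg adjustment covered all features of a fit, with a threshold of 0.05. Single values per library were compared with two-sided exact permutation tests. Alternatives were DESeq2 1.42.0, other scalings, pseudocount 5, plasmid minima, enhancers or libraries left out, and the library number as a block. The tests were tested on simulated data. Levels of GM12878 and SK-N-SH were computed the same way. Tables were joined in Python 3.11.15 with pandas 2.3.3 and numpy 2.4.6, the data.table package (version 1.17.8) was used in R, and figures used matplotlib 3.10.9.

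Elements and constructs were named by rule. For native windows these were the 12 largest differences each way that passed the threshold, had the same sign beside all 5 enhancers, non-overlapping libraries and a mean plasmid count of at least 100. The same rule named 6 loci each way, and 3 alternate alleles, positive controls, random sequences and negative controls each way. Single constructs needed at least 10 counts in every library of the lower line (3 each way), and 3 pairs each way were named for enhancer dependence.

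The positions in the names are not those of GRCh38: the reference base matched at 937 of 3828 alternate-allele elements (24.5%), and 172 windows end past a GRCh38 chromosome. No genome of the build of the names was used here, so window sequences, motif searches and neighbouring genes are not given. The noncanonical and benchmark tables were not used.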

Additional observations from a re-analysis of the deposited data

Results flagged for a closer look

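Native minus scrambled differed between HepG2 and K562 at 611 loci by the test of the difference itself, and alternate minus native at 32 alleles. The difference at a locus can come from the native window or from its scrambled version. At the 6 named loci shifted to HepG2, HepG2 minus K562 of native minus scrambled was 2.98 at chr11:64660866-64661066, 2.70 at chr20:30284077-30284277, 2.33 at chr11:95832061-95832261, 2.08 at chr16:67499791-67499991, 2.05 at chr5:167742019-167742219 and 2.05 at chr10:124487031-124487231. At the 6 named loci shifted to K562 it was -2.91 at chr1:161136284-161136484, -2.63 at chr19:49376863-49377063, -2.16 at chr11:111237158-111237358, -2.03 at chr3:11006364-11006564, -1.86 at chr1:229038898-229039098 and -1.84 at chr7:64460140-64460340.

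A library lay far from the other 3 of its line, by Dixon's test at the 95% level, in 12 of 128 groups of 4 values examined. Chance flags about 1 in 20 such groups. K562 library 1 accounted for 5: 3.92 at chr5:154033517-154033717 (others 3.43 to 3.48), 3.99 at a negative control on chromosome 16 (others 3.16 to 3.18), -0.86 at a negative control on chromosome 7 (others -0.43 to -0.35), 3.73 for native minus scrambled at chr1:161136284-161136484 (others 3.25 to 3.33) and -1.28 for the level of En19 (others -0.74 to -0.67). HepG2 library 4 was low at -1.59 in a no-motif window on chromosome 8 (others -0.45 to -0.29) and at -2.44 in a negative control on chromosome 13 (others -1.48 to -1.39). HepG2 library 1 was high at 4.00 in chr10:60833391-60833591 (others 3.68 to 3.72) and at 1.89 in chr11:95832061-95832261 (others 1.74 to 1.75). HepG2 library 2 was low for the level of En02, at -2.54 (others -2.35 to -2.33), and HepG2 library 3 was high at -0.18 in chr6:135644364-135644564 (others -1.002 to -0.871). K562 library 3 was high at -2.62 in chr2:39675322-39675522 (others -2.97 to -2.93). Non-overlapping libraries were a condition for the elements and loci taken by rule. That none of these libraries reached the values of the other line there was therefore fixed in advance. The levels of En02 and En19 did not overlap between the lines either.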

How the results depend on the processing

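Among single elements, constructs and loci taken by rule, 1320 values under alternatives were recomputed and none changed direction. For elements and loci the rule asked for the same sign beside every enhancer and for non-overlapping libraries. With an enhancer or a library left out, their direction was therefore fixed in advance. Of these, 3 fell short of the threshold, 1 for a negative control on chromosome 7 (-0.52, without En11) and 2 for the locus chr3:11006364-11006564. The count of constructs was within 1.5 times the reported one under every alternative, 51875 to 59976 with 1 library left out. Elements called were 16557 over En09, En19 and En21 alone and 17116 with edgeR on counts summed over the enhancers, and 8375 to 10650 with 1 library left out. For native minus scrambled the counts were 1701 over the same 3 enhancers (1095 relatively higher in HepG2 and 606 in K562) and 347 to 693 with 1 library left out. For alternate alleles they were 55 with pseudocount 5, 14, 13, 14 and 19 without En02, En09, En19 and En21, and 5 to 28 with 1 library left out. Enhancer dependence gave 17901 to 27926 calls with 1 library left out, the lowest without K562 library 2.

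Class medians (HepG2 minus K562) depended on the scale. On the median of the controls they were -0.14 for motif, 0.0875 for no-motif (call lost, exact permutation p = 0.0571), -0.14 for scrambled, -0.15 for alternate and -0.15 for positive control elements. Relative to random sequences they were -0.0689 for motif, -0.0666 for scrambled, -0.0735 for alternate and -0.0764 for positive control elements. On negative controls alone they lost the call at 0.0619 (motif), 0.0642 (scrambled), 0.0573 (alternate) and 0.0544 (positive control), and with pseudocount 5 at 0.12 (motif, scrambled and alternate). The level of En21 lost the call at 0.0743 on random elements alone and at 0.0112 on all elements. The cause of these changes was not tested, beyond the shift between scalings given above.

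Library numbers did not pair the lines: deviations of same-numbered libraries correlated at -0.03 to 0.02. With the number as a replicate block, 56244 constructs, 8803 elements, 297 loci (native minus scrambled) and 3 alternate alleles were called. Low counts beside En02 and En11 limit the precision there, most in HepG2 library 4.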
